A study of Bos taurus with 10 samples.

Results

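The 10 genes CDH5, PECAM1, KDR, FLT1, TEK, EPAS1, ENG, AQP1, LYVE1 and PLVAP, which mark the endothelium of blood and lymphatic vessels, were followed across 5 tissues of cattle at peak lactation. They were taken by current symbol from a list of names that was chosen with earlier results of these data known. Counts of these genes are therefore set beside the shares of all named genes as a description only. All 10 were found among the 4366 genes named on the cDNA arrays, where they were carried by 16 elements, and all 10 had a value on each of the 10 arrays. The tissues were liver, mammary gland, mesenteric adipose tissue, omental adipose tissue and subcutaneous adipose tissue. For each tissue 1 RNA sample was hybridised on 2 arrays against a reference of mixed tissue RNA, with the dyes Cy3 and Cy5 exchanged between the arrays. The labels give every sample as cow at peak lactation and name no genotype, treatment or age, and they do not say whether the 5 tissues came from the same animal.

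Endothelial cells line vessels and are held together by the cadherin encoded by CDH5 and by the adhesion molecule encoded by PECAM1. They receive growth signals through the VEGF receptors (KDR, FLT1) and the angiopoietin receptor (TEK), and ENG encodes a co-receptor for ligands of the TGF-beta and BMP family. EPAS1 encodes a hypoxia-inducible transcription factor, AQP1 a water channel, LYVE1 a hyaluronan receptor of lymphatic vessels and liver sinusoids, and PLVAP a protein of the diaphragms of endothelial fenestrae and caveolae. Milk secretion and fat mobilisation both depend on blood flow through these vessels. None of the genes is exclusive to endothelium: EPAS1, AQP1 and LYVE1 are also known from other cell types.

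Each value is a log2 ratio of tissue over reference after centring on the array's median, so that 1 unit is a 2-fold difference. Values are given with the tissue in Cy3 first and in Cy5 second, and the error (±) is the distance of either orientation from their mean. For a level it covers the dye and the hybridisation, not the animal. A difference between tissues is taken within each orientation, so a dye effect shared by both tissues cancels and is not in its error. With 1 RNA sample per tissue no test between tissues was possible and no p-value is given. A difference is called higher or lower by size, where its mean was at least 1 on the log2 scale and both orientations had the same sign. A ratio to the reference is read within a gene only, not between genes, apart from the medians of gene lists and the distances between profiles below. In RNA from whole tissue, fewer cells of a type and less RNA per cell cannot be told apart.

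The arrays gave values for 15970 to 16245 spots each. Gene names come from a rebuilt print layout, and the direction of the ratio is likely rather than stated. Its basis is that hepatocyte genes (6 of 7 higher) then lead in liver and milk secretion genes (5 of 5 higher) in mammary gland when these tissues are set against each other. With the opposite direction every difference below changes sign. The adipocyte list set the subcutaneous sample below the other depots and near mammary gland and liver: 6 of its 21 genes were measured, with a median level of 0.02 in subcutaneous, 1.32 in mesenteric and 1.58 in omental adipose tissue, against 0.11 in mammary gland and 0.56 in liver. The subcutaneous sample also had the highest median of the 19 measured macrophage and myeloid genes, 2.61 (range 0.71 to 6.63), where the other tissues had 0.22 to 1.29. The Cy5 array of omental adipose tissue carries conflicting dye labels, and the counts of endothelial genes called in each comparison moved by less than 1.5 times without it.

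Across tissues, the endothelial genes were mostly above the reference, and most had their highest ratio in a visceral depot. Of the 50 gene and tissue means, 49 lay above 0. The exception was LYVE1 in mammary gland. Counted as above 0 by their mean were also FLT1 in liver, mammary gland and subcutaneous adipose tissue, where its 2 orientations had opposite signs. Without centring 34 of the 50 means moved by more than the standard deviation of their 2 orientations. In mesenteric adipose tissue 8 of the 10 genes were past 2-fold over the reference (background 5.47% of named genes), in omental adipose tissue 9 (4.87%), in liver 7 (9.07%), in mammary gland 4 (3.99%) and in subcutaneous adipose tissue 4 (6.34%). The omental count includes FLT1, whose duplicate spots on the Cy3 array read 1.03 and 5.70, so it does not set omental above mesenteric adipose tissue. The median ratio of the 10 genes was 2.14 in mesenteric, 2.00 in omental, 1.37 in liver, 0.83 in mammary gland and 0.75 in subcutaneous adipose tissue, while the median of all named genes lay between -0.07 and -0.03 in each tissue. With both dye orientations in the same order, mesenteric adipose tissue was the highest tissue for CDH5, PECAM1, TEK, ENG and AQP1, and omental adipose tissue for EPAS1 and LYVE1 and, as the mean of 2 elements that disagreed, for KDR. For LYVE1 omental minus mesenteric was 0.03 in Cy3 and 0.46 in Cy5, and the larger value uses the omental array of conflicting dye labels. At the lower end, both orientations placed subcutaneous adipose tissue last for CDH5 and KDR, liver for PECAM1 and mammary gland for EPAS1 and LYVE1. For PECAM1 and EPAS1 this is the order of the mean of their elements, and single elements were less settled. For TEK, ENG, AQP1 and PLVAP the lowest tissue differed from its neighbour in opposite directions in the 2 orientations, as did the highest tissue for PLVAP, and FLT1 could not be ordered. These orders depend in part on the centring. Without it ENG was highest in omental adipose tissue (mesenteric minus omental -0.10). CDH5 was then lower in liver (-0.27) and mammary gland (-0.07) than in subcutaneous adipose tissue.

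**Figure D1:**
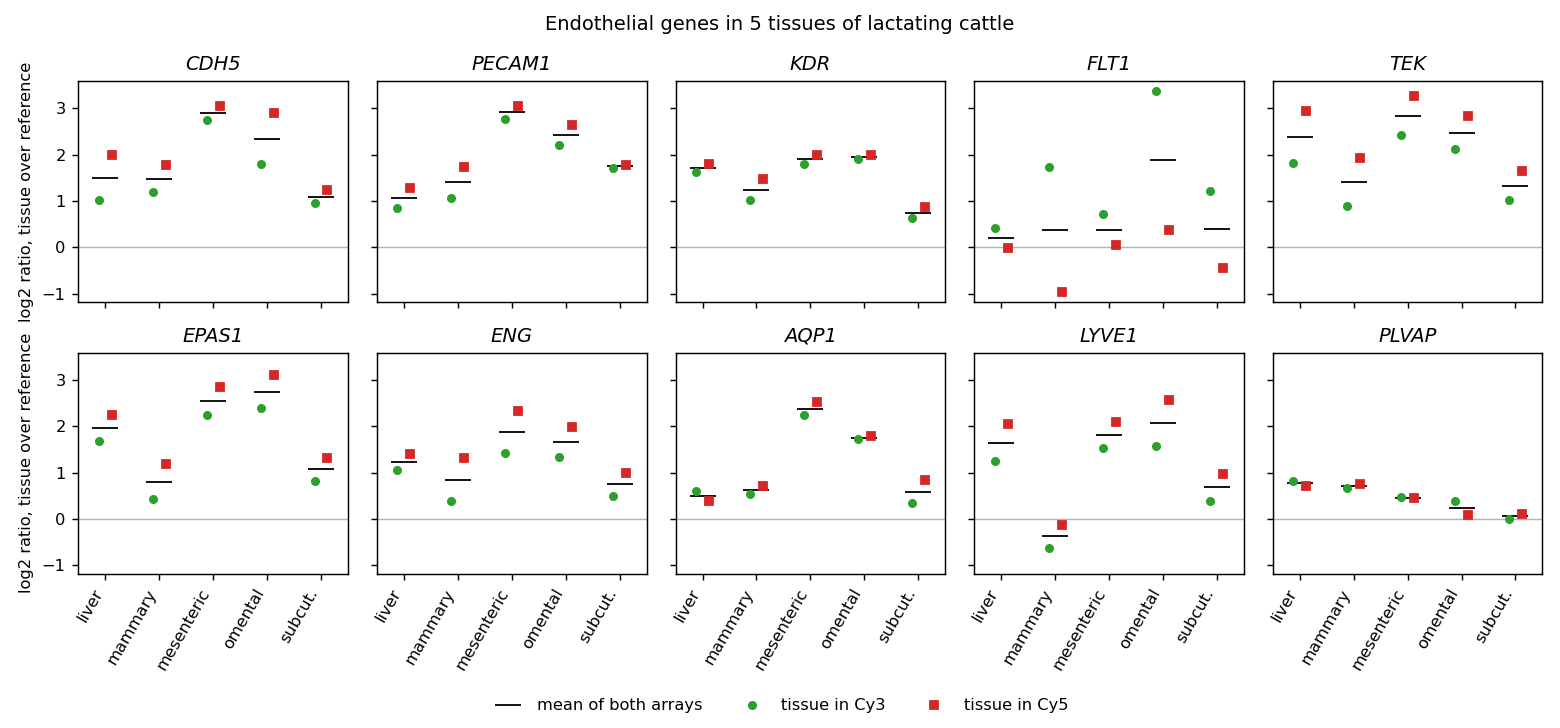
Log2 ratio of tissue over reference (y axis, centred on the array median) of the 10 endothelial genes in the 5 tissues (x axis), with a green circle for the array with the tissue in Cy3, a red square for Cy5 and a bar for their mean. CDH5, PECAM1, TEK, ENG and AQP1 peak in mesenteric adipose tissue, the FLT1 orientations lie far apart (3.36 and 0.38 in omental adipose tissue), and PLVAP stays between 0.01 and 0.81.

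The junction and adhesion genes came first. CDH5, the adherens junction cadherin of endothelium, read 2.73 and 3.05 in mesenteric, 1.79 and 2.90 in omental, 0.96 and 1.23 in subcutaneous adipose tissue, 1.02 and 1.99 in liver and 1.19 and 1.77 in mammary gland. The mesenteric and omental arrays overlapped with one another, but both mesenteric arrays lay above all those of liver, mammary gland and subcutaneous adipose tissue. Liver and mammary gland could not be ordered for this gene (difference 0.02 ± 0.19, with opposite signs in the 2 orientations). PECAM1, an adhesion molecule at endothelial cell contacts that is also carried by platelets and leukocytes, read 2.77 and 3.05 in mesenteric, 2.21 and 2.63 in omental, 1.71 and 1.78 in subcutaneous adipose tissue, 0.84 and 1.27 in liver and 1.06 and 1.74 in mammary gland. Unlike CDH5 its lowest tissue, in the mean of its elements, was liver, and its subcutaneous level had rank 3 of the 5 tissues. In the first element liver minus mammary gland read 0.11 and -0.55, and mammary gland minus subcutaneous adipose tissue -1.17 and 0.02. In the second element both differences were below 0 in both orientations.

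KDR, the main signalling receptor for VEGF in endothelium, was read by 2 elements, whose mean was 1.80 and 1.98 in mesenteric and 1.90 and 2.00 in omental adipose tissue. The elements went opposite ways between these depots, with mesenteric minus omental at -0.41 ± 0.32 and 0.31 ± 0.24, so the order of the depots is not settled for this gene. Liver followed at 1.63 and 1.80, mammary gland at 1.03 and 1.47 and subcutaneous adipose tissue at 0.63 and 0.87. Both subcutaneous arrays lay below all the others. Liver and mesenteric adipose tissue were not told apart by both elements: the first read 1.09 ± 0.31 in liver and 1.05 ± 0.11 in mesenteric adipose tissue, the second 2.34 ± 0.48 and 2.74 ± 0.29. FLT1, a VEGF receptor with weaker kinase activity that also exists in a soluble form, gave no usable order. It read 0.71 and 0.05 in mesenteric, 3.36 and 0.38 in omental, 1.21 and -0.44 in subcutaneous adipose tissue, 0.41 and -0.02 in liver and 1.73 and -0.96 in mammary gland. Of 158 pairs of duplicate spots measured for the 10 genes, 5 lay over 1 apart, and all 5 belonged to the FLT1 element. In the omental Cy3 array its spots read 1.03 and 5.70.

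TEK, the receptor of angiopoietins, read 2.42 and 3.25 in mesenteric, 2.12 and 2.82 in omental, 1.02 and 1.64 in subcutaneous adipose tissue, 1.81 and 2.93 in liver and 0.89 and 1.92 in mammary gland. Liver stood with the visceral depots for this gene: omental adipose tissue differed from it by 0.10 ± 0.21, with opposite signs in the orientations. Mammary gland and subcutaneous adipose tissue formed the lower end and could not be ordered (0.08 ± 0.20). ENG (endoglin), the TGF-beta family co-receptor, read 1.42 and 2.32 in mesenteric, 1.35 and 1.97 in omental, 0.50 and 0.99 in subcutaneous adipose tissue, 1.06 and 1.40 in liver and 0.38 and 1.32 in mammary gland. Its tissues stood in the same order as those of TEK, and mammary gland and subcutaneous adipose tissue again could not be ordered (0.11 ± 0.22).

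EPAS1, whose product is the hypoxia-inducible factor HIF-2alpha, was carried by 5 separate elements. Their mean read 2.23 and 2.85 in mesenteric, 2.40 and 3.09 in omental, 0.82 and 1.32 in subcutaneous adipose tissue, 1.67 and 2.24 in liver and 0.43 and 1.18 in mammary gland. The order of this mean ran from omental over mesenteric adipose tissue, liver and subcutaneous adipose tissue to mammary gland. Each step had the same sign in both orientations. Single elements were less settled at both ends. For mesenteric minus omental adipose tissue element 2 read 0.35 and -0.13. For mammary gland minus subcutaneous adipose tissue elements 1, 3 and 4 read -0.48 and 0.18, -0.35 and 0.02, and -0.45 and 0.03. The other elements kept the sign of the mean at these steps. AQP1, the water channel of capillary endothelium and red cells, read 2.23 and 2.52 in mesenteric and 1.72 and 1.79 in omental adipose tissue. Its other tissues lay close together, at 0.35 and 0.83 in subcutaneous adipose tissue, 0.61 and 0.38 in liver and 0.54 and 0.72 in mammary gland. The gap from omental adipose tissue to mammary gland was 1.12 ± 0.05, whereas mammary gland, subcutaneous adipose tissue and liver could not be ordered.

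LYVE1 spanned more than any other of the 10 genes, 2.43 on the log2 scale between omental adipose tissue and mammary gland. It read 1.57 and 2.55 in omental, 1.53 and 2.09 in mesenteric, 0.40 and 0.97 in subcutaneous adipose tissue, 1.25 and 2.04 in liver and -0.63 and -0.12 in mammary gland. Both mammary arrays lay below the reference and below every other array. PLVAP ran the other way, with 0.81 and 0.72 in liver, 0.68 and 0.75 in mammary gland, 0.47 and 0.45 in mesenteric, 0.38 and 0.09 in omental and 0.01 and 0.12 in subcutaneous adipose tissue. Its span of 0.71 stayed under 2-fold, and it was the 1 gene of the 10 with both visceral depots below liver and mammary gland.

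For the 3 genes with more than 1 element the profiles could be set side by side, which bears on the gene names as well as on the values. The 5 EPAS1 elements, spotted from 3 source plates, had a cosine between their 5-tissue profiles of 0.97 or more (median 0.99 over 10 pairs). The PECAM1 elements had a cosine of 0.96 but different heights. Its first element read 4.25 ± 0.23 in mesenteric adipose tissue and 1.80 ± 0.30 in liver, and its second element 1.57 ± 0.05 and 0.30 ± 0.13. The KDR elements had a cosine of 0.85. In subcutaneous against visceral adipose tissue, both PECAM1 elements (-1.26 ± 0.27 and -0.57 ± 0.01) and both KDR elements (-0.82 ± 0.18 and -1.52 ± 0.08) had the same sign, and 1 of each pair was past 2-fold.

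**Figure D2:**
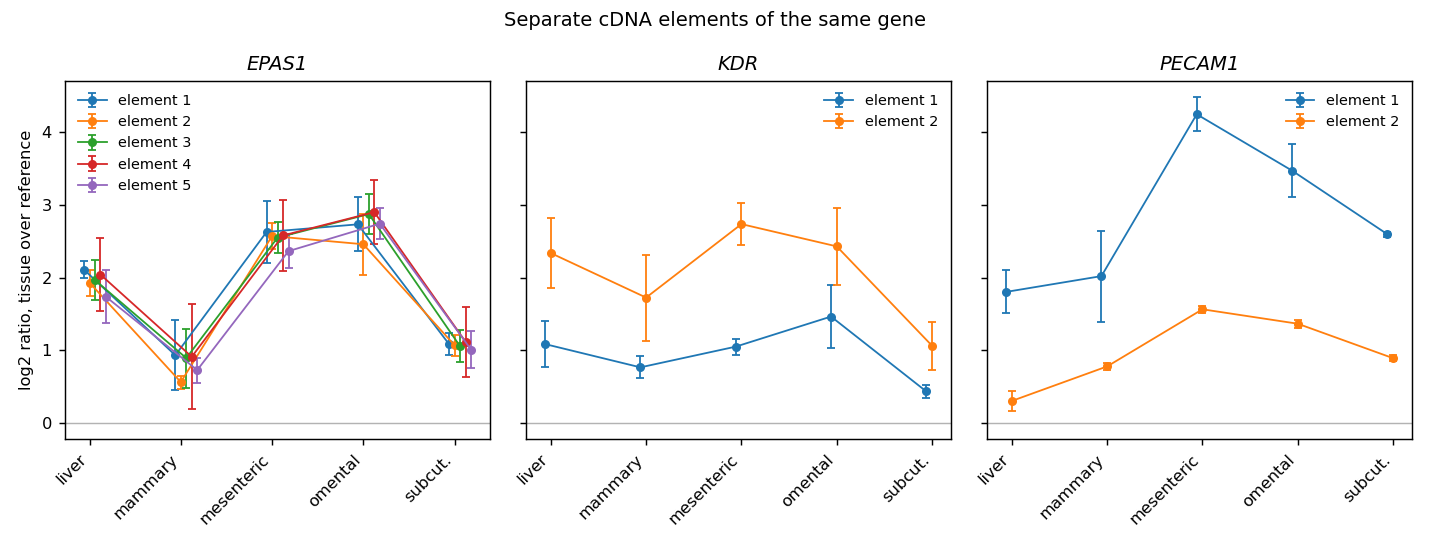
Log2 ratio of tissue over reference (y axis) of each cDNA element of EPAS1 (5), KDR (2) and PECAM1 (2) in the 5 tissues (x axis); points are means of both dye orientations and bars reach to either orientation. The EPAS1 elements overlie one another, while the PECAM1 elements keep the same order of tissues at different heights, 4.25 and 1.57 in mesenteric adipose tissue.

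In subcutaneous against visceral adipose tissue (the mean of mesenteric and omental), 7 of the 10 endothelial genes were lower and none was higher, where 3.72% of all named genes were lower and 6.23% higher. The genes that passed were EPAS1 (-1.57 ± 0.08, 2.98-fold lower), CDH5 (-1.52 ± 0.22), AQP1 (-1.47 ± 0.15), TEK (-1.33 ± 0.07), LYVE1 (-1.26 ± 0.10), KDR (-1.17 ± 0.05) and ENG (-1.02 ± 0.13). PECAM1 at -0.92 ± 0.14, FLT1 at -0.74 ± 0.09 and PLVAP at -0.29 ± 0.13 did not pass. The small error of FLT1 does not show its discordant spots. Its difference was 0.50 and -0.49 against mesenteric and -2.15 and -0.82 against omental adipose tissue. The median difference of the 10 genes was -1.21, against 0.01 over all 4332 named genes compared. With the tissue in Cy5 alone 8 genes passed, with the tissue in Cy3 alone 6.

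This count depended on the centring of the arrays. Without centring 0 of the 10 genes passed, the median of the 10 was -0.59 and the median of all named genes moved to 0.64, and PLVAP stood at 0.34. Centring moves all genes of an array alike and leaves a gene's place among them as it is: 1.04% of named genes lay below EPAS1, 3.55% below ENG, 4.52% below PECAM1 and 18.8% below PLVAP. After quantile normalisation 8 of the 10 passed. Against each depot separately, 8 genes had a negative difference in all 4 pairings of depot and dye. The exceptions were FLT1 and PLVAP, with 3 of 4.

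Other lists differed between the same tissues. Of 19 macrophage and myeloid genes 15 were higher in subcutaneous adipose tissue and 1 lower (median difference 2.87), and of 9 T and NK cell genes 4 were higher (0.83). Of 10 smooth muscle and pericyte genes 6 were lower (-1.08), among them MCAM, which endothelium also carries, at -2.43 ± 0.25 and the potassium channel gene KCNJ8 at -1.41 ± 0.04. Of 6 adipocyte genes 3 were lower (-1.13) and of 13 fibroblast and matrix genes 3 were lower and 1 higher (-0.65). Their part in the lower ratios of the endothelial genes was not tested. Without centring 2 smooth muscle and pericyte genes were lower, 2 adipocyte genes were lower and 1 higher, 2 fibroblast and matrix genes were higher and 0 lower, and 16 macrophage genes were higher.

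**Figure D3:**
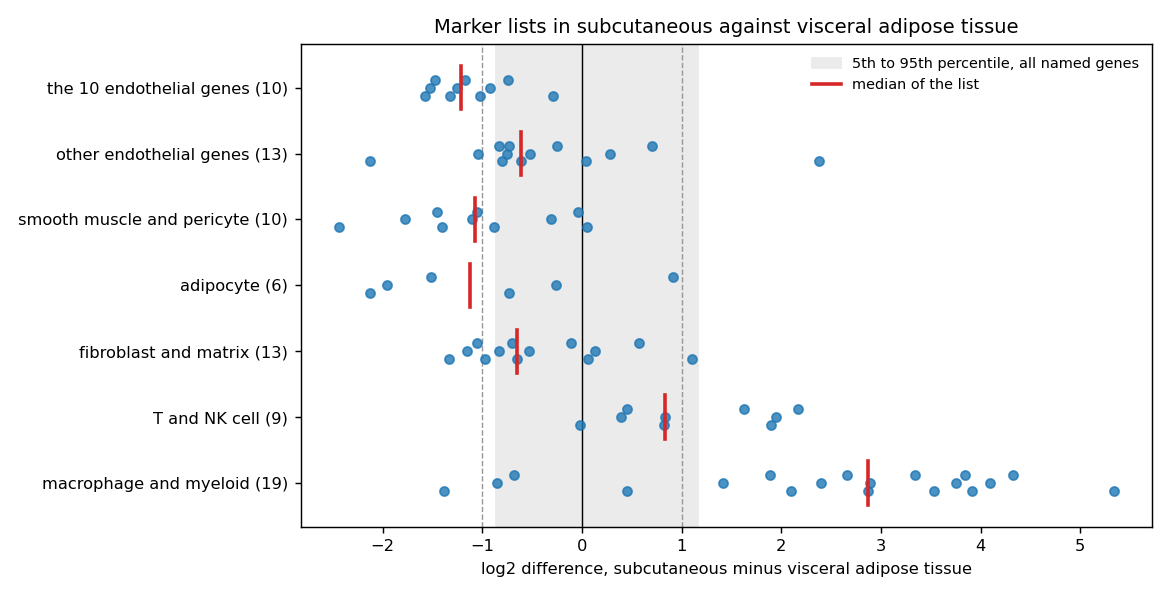
Log2 difference of subcutaneous minus visceral adipose tissue (x axis) for each measured gene (points) of 7 lists (rows, number of genes in brackets), with the median of each list in red, all named genes' 5th to 95th percentile in grey and dashed lines at 2-fold. The 10 endothelial genes, among them FLT1 with its discordant spots, all lie left of 0 with a median of -1.21. The macrophage and myeloid list has a median of 2.87.

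In mammary gland against visceral adipose tissue 6 of the 10 genes were lower (6.3% of named genes lower) and none was higher (3.29%), with a median of -1.19 for the 10 and -0.02 for all genes. LYVE1 stood at -2.31 ± 0.13 (4.96-fold lower in mammary gland), EPAS1 at -1.84 ± 0.05, AQP1 at -1.43 ± 0.00, PECAM1 at -1.26 ± 0.16, TEK at -1.24 ± 0.13 and CDH5 at -1.14 ± 0.06. The PECAM1 elements read -1.84 ± 0.33 and -0.69 ± 0.00, so that the second was under 2-fold. Below LYVE1 lay 0.695% of named genes. ENG (-0.91 ± 0.09), FLT1 (-0.75 ± 0.43), KDR (-0.68 ± 0.15) and PLVAP (0.37 ± 0.11) did not pass. Without centring CDH5 was at -0.97 and 5 genes passed. Among other cell types, all 5 measured milk secretion genes (median 3.43) and 6 of 13 epithelial genes (0.98) were higher in mammary gland, with 1 epithelial gene lower. Of 6 adipocyte genes 4 were lower and 1 higher (-1.32). Of the stromal and immune lists, 10 of 13 fibroblast and matrix genes (median -2.10), 3 of 10 smooth muscle and pericyte genes (-0.66) and 8 of 19 macrophage genes (-0.53) were lower in mammary gland, with 1 macrophage gene higher. That gene was SPP1 (4.28 ± 0.25), which is also counted among the milk secretion genes. What part these lists had was not tested.

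**Figure D4:**
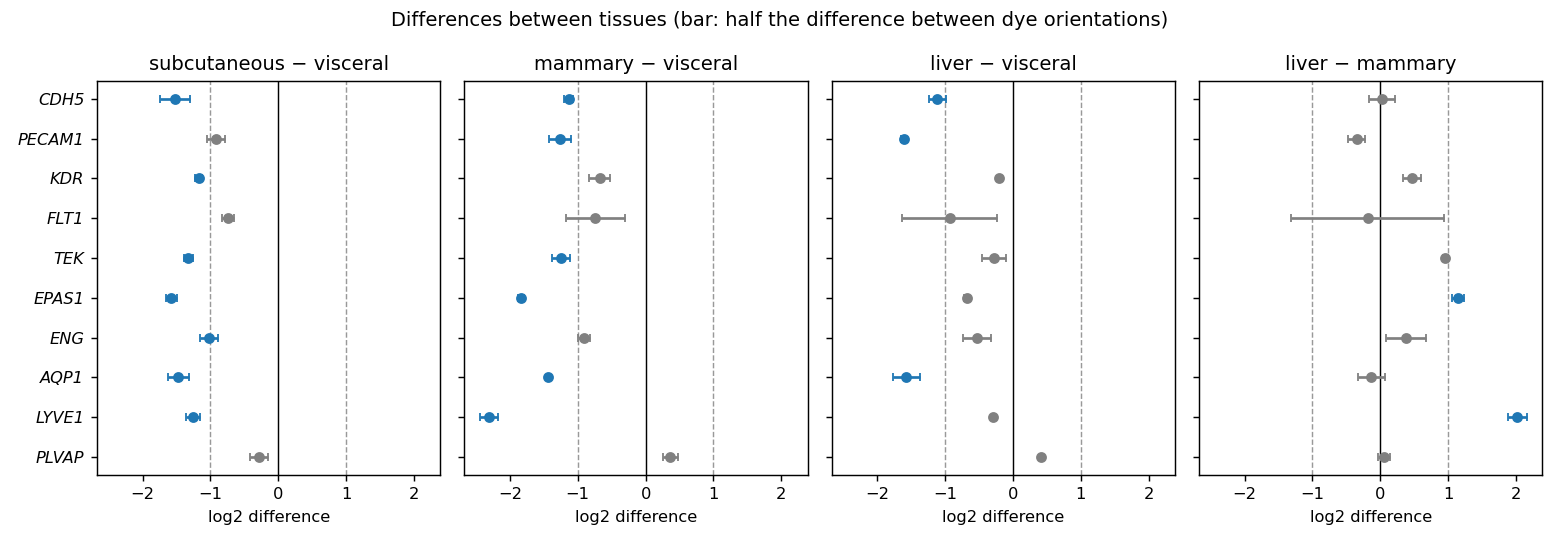
Log2 differences (x axis) of the 10 endothelial genes (rows) in 4 comparisons, with the mean of both dye orientations as a point, bars reaching to either orientation, dashed lines at 2-fold and blue for genes past the size rule. In the 3 panels against visceral adipose tissue 7, 6 and 3 genes lie past the line on the left, and in liver against mammary gland EPAS1 and LYVE1 lie past it on the right.

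In liver against visceral adipose tissue 3 of the 10 genes were lower (5.96% of named genes lower) and none was higher (7.41%): PECAM1 at -1.61 ± 0.04, AQP1 at -1.57 ± 0.20 and CDH5 at -1.11 ± 0.13. Closer to visceral adipose tissue lay KDR at -0.21 ± 0.02, TEK at -0.28 ± 0.18, LYVE1 at -0.29 ± 0.01, ENG at -0.53 ± 0.21 and EPAS1 at -0.68 ± 0.04. PLVAP was above 0 at 0.42 ± 0.03 and FLT1 had a wide error at -0.93 ± 0.70. After quantile normalisation EPAS1 (-1.21) and FLT1 (-1.15) also passed, making 5. With the tissue in Cy5 alone CDH5 was at -0.98 and 2 genes passed, and with the tissue in Cy3 alone 4 passed. Fibroblast and matrix genes (11 of 13 lower, median -2.64, with 1 higher) and smooth muscle and pericyte genes (6 of 10 lower, -1.25) differed between the same tissues. So did hepatocyte genes (6 of 7 higher, 2.17), epithelial genes (5 of 13 higher, 0.37), adipocyte genes (3 of 6 lower and 1 higher, -0.97) and macrophage genes (4 of 19 lower and 1 higher, -0.23). The part of these lists was not tested.

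Set directly against each other, liver and mammary gland differed by size in 2 of the 10 genes, both higher in liver (9.34% of named genes higher, 4.44% lower). EPAS1 was at 1.15 ± 0.09 and LYVE1 at 2.02 ± 0.14. The EPAS1 call did not hold without centring (0.94) or after quantile normalisation (0.79), whereas LYVE1 stayed between 1.61 and 2.16 in 9 alternatives. TEK, at 0.96 ± 0.04, lay just under the limit and stood at 0.32 after quantile normalisation. The remaining genes were KDR at 0.47 ± 0.14, ENG at 0.38 ± 0.30, PLVAP at 0.05 ± 0.08, CDH5 at 0.02 ± 0.19, AQP1 at -0.14 ± 0.20, FLT1 at -0.19 ± 1.13 and PECAM1 at -0.35 ± 0.12. Of the 4 lymphatic and sinusoidal genes listed with LYVE1, DNASE1L3, a nuclease gene, was higher in liver at 1.49 ± 0.14, CD9 was lower at -2.20 ± 0.44, and PDPN (0.29 ± 0.05) and CCL21 (0.21 ± 0.48) did not pass. Of 19 macrophage and myeloid genes 6 were higher in liver and 2 lower (median 0.46), with SPP1, also on the milk secretion list, among the lower ones. The complement genes C1QA at 2.90, C1QB at 3.07 and C1QC at 2.48 were among the higher ones, and the part of this list in the LYVE1 difference was not tested.

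Between mesenteric and omental adipose tissue 1 of the 10 genes differed by size, and it was the gene with discordant spots. FLT1 passed the size rule at -1.49 ± 1.16 (0.576% of named genes lower, 0.829% higher), and it had no value once elements with discordant duplicate spots were left out. The other 9 genes lay between -0.25 (LYVE1) and 0.62 (AQP1). AQP1 at 0.62 ± 0.10, CDH5 at 0.55 ± 0.40 and PECAM1 at 0.49 ± 0.07 lay above 0 in both orientations but under 2-fold, and 97.9% of named genes lay below AQP1, 97.2% below CDH5 and 96.3% below PECAM1. TEK, ENG and PLVAP were also above 0 in both orientations. LYVE1, EPAS1 and the mean of the KDR elements were below 0 in both, with 13.9%, 17.7% and 41.2% of named genes below them. Against subcutaneous adipose tissue, liver was higher in 1 gene, TEK at 1.04 ± 0.25 (7.98% of named genes higher, 9.64% lower). That call did not hold after quantile normalisation (0.58), without centring (0.37) or with the tissue in Cy3 alone (0.79). Mammary gland was lower in 1 gene, LYVE1 at -1.05 ± 0.03 (10.3% lower, 3.6% higher). Both counts against subcutaneous adipose tissue, 1 of 10 genes, lie near the shares of all named genes in the same direction. Against the mean of all 3 depots, liver was lower in PECAM1 (-1.30 ± 0.08) and AQP1 (-1.08 ± 0.25), where 6.06% of named genes were lower and 7.28% higher, and mammary gland in LYVE1 (-1.89 ± 0.10) and EPAS1 (-1.31 ± 0.07), where 6.72% were lower and 2.88% higher. The PECAM1 elements read -1.64 ± 0.08 and -0.97 ± 0.09 for liver. The comparisons with adipose tissue share the same depot samples and are not independent of one another.

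Other endothelial genes were less uniform. Of 53 listed, 13 were measured, and in subcutaneous against visceral adipose tissue 2 were lower and 1 higher, with a median of -0.61. CAV1, the coat protein of caveolae and also an adipocyte gene, was lower at -2.13 ± 0.06, and CD93, an endothelial and myeloid surface receptor, at -1.04 ± 0.07. ICAM1, a leukocyte adhesion molecule, was higher at 2.38 ± 0.36. Without centring the median of this list moved to 0.02. In liver against visceral adipose tissue 5 of the 13 were lower and none higher (median -0.76), with CAV1 at -4.43 ± 0.18, CD93 at -1.51 ± 0.32, TFPI (an inhibitor of coagulation) at -1.38 ± 0.27, the transcription factor gene KLF4 at -1.38 ± 0.00 and ECSCR at -1.07 ± 0.10. In mammary gland against visceral adipose tissue 3 were lower and none higher (-0.46), with CAV1 at -1.95 ± 0.21, ECSCR at -1.15 ± 0.05 and CD93 at -1.12 ± 0.45. In liver against mammary gland CAV1 (-2.48 ± 0.40) and ACE (-1.33 ± 0.11) were lower in liver.

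Ligands and co-receptors of the VEGF, angiopoietin and Notch list were measured for 9 of 33 genes, 8 of them in the mesenteric depot. VEGFA, the ligand of KDR and FLT1, showed little difference between tissues, with means from -0.05 in subcutaneous adipose tissue to 0.43 in liver. In subcutaneous against visceral adipose tissue it was at -0.21 ± 0.07. NRP2, a co-receptor for VEGF family ligands and semaphorins, was higher in the subcutaneous sample at 2.26 ± 0.17, with a level of 2.68 there and 0.03 to 0.47 in the other tissues. ADAMTS1, a secreted protease that binds VEGF, was lower at -1.11 ± 0.09. VEGFB, a ligand of FLT1, was lower in liver than in mammary gland at -2.43 ± 0.35 and had no value in mesenteric adipose tissue. JAG2, a Notch ligand, was higher in liver than in mammary gland at 1.12 ± 0.15. In liver against visceral adipose tissue 0 of the 8 measured genes passed, and in mammary gland against visceral adipose tissue 1 passed, JAG2 at -1.02 ± 0.17.

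Among genes of TGF-beta and BMP signalling, the pathway of ENG, 11 of 25 were measured. Lower in subcutaneous than in visceral adipose tissue were ID3, a target of BMP signalling, at -1.56 ± 0.00 and its upstream mediator SMAD1 at -1.10 ± 0.14, and none was higher (median -0.26). Without centring neither passed and the list's median was 0.36, with 2 genes higher. The type II receptor gene TGFBR2 was at 0.49 ± 0.03. ID3 was also lower in mammary gland (-1.35 ± 0.01) and in liver (-1.21 ± 0.16) than in visceral adipose tissue, where 3 and 4 of the 11 genes were lower and none higher. The TGF-beta ligand gene TGFB3 was at -1.78 ± 0.18 in mammary gland and -2.19 ± 0.12 in liver.

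Of the hypoxia list around EPAS1, 12 of 28 genes were measured. In subcutaneous against visceral adipose tissue, where EPAS1 was lower, 3 were higher and none lower (median 0.27): LDHA, lactate dehydrogenase, at 3.39 ± 0.15, EGLN2, an oxygen-sensing prolyl hydroxylase, at 2.55 ± 0.16 and the glucose transporter gene SLC2A1 (0.90 and 1.11 in the 2 orientations). HIF1A, the paralogue of EPAS1, was at 0.44 ± 0.06. In liver HIF1A was lower than in visceral adipose tissue at -1.04 ± 0.04, the 1 gene of the 12 to pass there. In mammary gland SLC2A1 was higher (1.97 ± 0.14) and LDHA lower (-1.09 ± 0.09) than in visceral adipose tissue.

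Of the 25 lymphatic and sinusoidal genes listed with LYVE1, 4 were measured. PDPN, podoplanin of lymphatic endothelium, was lower than in visceral adipose tissue in mammary gland (-1.56 ± 0.18) and in liver (-1.27 ± 0.23) but stood at 0.31 ± 0.19 in subcutaneous adipose tissue, where LYVE1 was lower. CD9, a tetraspanin of many cell types, was higher there at 1.80 ± 0.17. In liver against visceral adipose tissue DNASE1L3 was higher at 1.59 ± 0.01 and CD9 lower at -1.20 ± 0.25, so that 1 of the 4 genes was higher and 2 were lower. A list of junction and adhesion genes (13 of 28 measured) had 1 gene higher and none lower in subcutaneous against visceral adipose tissue. That gene was the hyaluronan receptor gene CD44 at 2.52 ± 0.03 (list median -0.30, and 0.33 without centring, when 2 were higher). In liver CD44 was lower at -1.81 ± 0.06, as were CD99 (-1.76 ± 0.01) and ITGB1 (-1.08 ± 0.34), while the tight junction genes CGN (1.75 ± 0.17) and OCLN (1.39 ± 0.29) were higher. Of 12 other aquaporins 2 were measured, and AQP3 was higher in mammary gland than in visceral adipose tissue at 1.11 ± 0.46.

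Likeness of profiles was measured as the root mean square distance over the 10 arrays among 4306 other named genes, for the 9 genes that spanned at least 2-fold. The ratios were centred by array and not by gene, so the distance includes how high an element reads against the reference as well as the order of the tissues, and another element of the same gene could have other neighbours. The nearest gene to CDH5 was FZD4 at 0.31, and PECAM1 had rank 3 at 0.41. The nearest to PECAM1 was CD93 at 0.32, to KDR MYLK at 0.34, to ENG SNRK at 0.29 and to LYVE1 THEM4 at 0.39. AQP1 had the closest neighbour of the 9, KCNJ8 at 0.16, with levels of 2.16 in mesenteric and 1.65 in omental adipose tissue and 0.50 to 0.58 in the other tissues. TEK and EPAS1 were at 0.42 from each other, EPAS1 having TEK as its nearest gene and TEK having CEACAM1 at 0.35. FLT1 had no close neighbour, with CNOT3 nearest at 0.73. The 10 arrays share 5 RNA samples and 1 reference, so these distances are a description of the samples.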

How the data were processed

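The deposited value table holds log2 dye ratios of 10 two-colour arrays, as the authors deposited them. The base was inferred from a ceiling of 16.61 (94 values, treated as missing). Any background correction or normalisation is unstated in the sources used here. Arrays with the tissue in Cy3 were turned in sign, reading the deposited ratio as Cy5 over Cy3. Both arrays of a tissue correlated at -0.78 to -0.66 before turning and arrays of like orientation at 0.23 to 0.79. Arrays were centred on their median (-1.32 to 0.71 as deposited). Duplicate spots, elements of a gene and dye orientations were averaged in turn, and the 2 arrays of a tissue counted as 1 sample.

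Identifiers and table positions did not correspond at face value (mean cosine between clones of a gene 0.01). A print layout was chosen from 294912 pairings as the one in which clones of a gene agreed best, leaving out the clones of the 10 genes. It gave a mean cosine of 0.49 on 474 genes not used in the choice, and the next different layout 0.10. Elements of 20 source plates were named, 5467 of 5472 through the RefSeq gene table of ARS-UCD2.0. Names of single clones may be wrong.

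The members and lists were chosen with earlier results of these data known. Named from each list were at most 6 genes past the size rule, those with the largest differences, and direct partners of the 10 genes (5 of 18 were on the arrays). The 3 nearest genes by distance were computed per gene. Calculations used Python 3.11.15, numpy 2.4.6, pandas 2.3.3 and matplotlib 3.10.9, and the layout search and the size rule were tested on simulated data. Alternatives covered centring, quantile normalisation, dye orientation, elements, duplicate spots, ceiling values, plates and the size limit.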

Additional observations from a re-analysis of the deposited data

How the results depend on the processing

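The 9 counts of the 10 endothelial genes moved by less than 1.5 times when ceiling values were kept, when elements of a gene were summarised by their median, when all plates were named or when the omental array of conflicting labels was left out. The size limit moved them most. At 1.5-fold the counts were 4 for liver against all 3 depots, 6 for mammary gland against all 3, 2 for mesenteric against omental adipose tissue, 5 for liver against visceral, 6 for liver against subcutaneous and 2 for mammary gland against subcutaneous adipose tissue. All named genes gave, in the same order, 1230 of 4326, 1062 of 4313, 192 of 4340, 1197 of 4330, 1490 of 4347 and 1288 of 4331. At 3-fold the counts of the 10 genes were 1, 1, 1 and 2 for liver against mammary gland, mammary gland against 3 depots, liver against visceral and mammary gland against visceral, and 0 for the other 5. All named genes gave 281 of 4325, 141 of 4313, 267 of 4330 and 150 of 4318 for the comparisons named. Without centring liver against mammary gland gave 1 and subcutaneous against visceral 0, and quantile normalisation gave 1 for liver against mammary gland, 5 for liver against visceral and 0 for liver against subcutaneous. Mammary gland against visceral in place of all depots gave 6. Mesenteric against omental gave 0 without the discordant spots or without FLT1, an alternative chosen after seeing the data. With 1 dye orientation left out, mesenteric against omental ranged from 0 to 1 and liver against subcutaneous from 0 to 2.

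Over all named genes, 1.5-fold gave 1233 for liver against mammary gland, 1230 and 1062 for liver and mammary gland against 3 depots, 915 for subcutaneous against visceral, 192 for mesenteric against omental, 1197 and 1026 for liver and mammary gland against visceral, and 1490 and 1288 against subcutaneous. In the same order 3-fold gave 281, 254, 141, 173, 19, 267, 150, 381 and 272. Without centring 898 passed in subcutaneous against visceral (858 higher and 40 lower, against 270 and 161), 93 in mesenteric against omental (19 higher and 74 lower, against 36 and 25), 1538 in liver against subcutaneous (164 higher and 1374 lower, against 347 and 419) and 1025 in mammary gland against subcutaneous. Mesenteric against omental gave 29 without discordant spots, 108 without the omental Cy5 array and 102 to 108 with 1 orientation left out. No paired analysis was possible because each tissue is 1 RNA sample and the replicate numbers mark the dye.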
